A study of Mus musculus with 6 samples.

Results

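A group of 10 transcription factors that set the balance between the epithelial and the mesenchymal state was followed in 4T1 cells, a mouse mammary carcinoma line. They were chosen by gene symbol, and 10 of the 31017 genes of the deposited count table are members: the EMT inducers Zeb2, Snai1, Twist1, Zeb1, Prrx1 and Snai2, and the epithelial guardians Ovol2, Grhl2, Ovol1 and Klf4. The series compared 3 ETV4 KO samples with 3 control samples. Cas9 was delivered by nucleofection in both groups, with guides against Etv4 in the ETV4 KO cells and with control guides in the control cells. All cells were then grown in 3D collagen I gels, and poly(A) RNA was sequenced from stranded libraries. Of the collagen concentrations in the protocol, the labels do not say which a sample had. The 3 ETV4 KO libraries carry the code c39, which the labels do not explain, so whether they come from 1 clone or from a pool is not known. Nothing in the labels ties the samples to separate cultures, so the p-values rest on the variation among these samples alone, and part or all of it may be technical.

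Epithelial to mesenchymal transition, EMT, is the loss of cell junctions and polarity with the gain of a migratory, matrix-producing phenotype. The zinc finger proteins of the SNAIL and ZEB families bind E-boxes in the promoters of epithelial genes such as Cdh1 and repress them, and the helix-loop-helix factor TWIST1 and the homeobox factor PRRX1 act beside them. OVOL and grainyhead-like (GRHL) factors do the opposite: they keep epithelial genes on and repress Zeb genes, and ZEB proteins repress them in return. KLF4 is a zinc finger factor of differentiating epithelia. ETV4 belongs to the PEA3 subfamily of ETS factors, which bind DNA at a GGAA core.

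Total counts were 24356286 to 29042569 in the ETV4 KO libraries and 22355015 to 26669985 in the control libraries. Levels are given as CPM, counts relative to library sizes scaled by the trimmed mean of M values (TMM). Of the 31017 genes 12076 passed the count filter and were tested with edgeR's quasi-likelihood test, and a gene was called at a Benjamini-Hochberg adjusted p under 0.05 over these genes. The targeted gene Etv4 was lower but not lost: 87.4, 89.5 and 92.3 CPM in the ETV4 KO libraries, against 133.5, 134.6 and 133.2 CPM in the control libraries, which is -0.58 on the log2 scale with an SE of 0.036 (n = 3 each; -0.11 with the median of its neighbours on chromosome 11 taken out, as described further on). Gene-level counts do not show whether the coding sequence was disrupted.

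Positions are those of GENCODE in mm10. Of the 10 factors 7 passed the filter, each with at least 49 counts in every library, and Zeb1, Prrx1 and Snai2 were below it. In ETV4 KO cells 4 of the 7 were called higher (Zeb2, Klf4, Snai1 and Twist1) and 2 lower (Ovol2 and Grhl2), while Ovol1 did not pass the threshold. Calls were frequent in this comparison: 71.1% of all tested genes were called, 35.0% higher and 36.0% lower. The share of factors called is thus read only against that background. The groups did not overlap for 6 of the 7, 4 with ETV4 KO above and 2 below, against 72.7% of all tested genes, 36.1% above and 36.6% below. The median absolute log2 fold change over all tested genes was 0.29. In bulk RNA, a change in the share of cells that express a gene and a change in RNA per cell cannot be told apart.

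**Figure D1:**
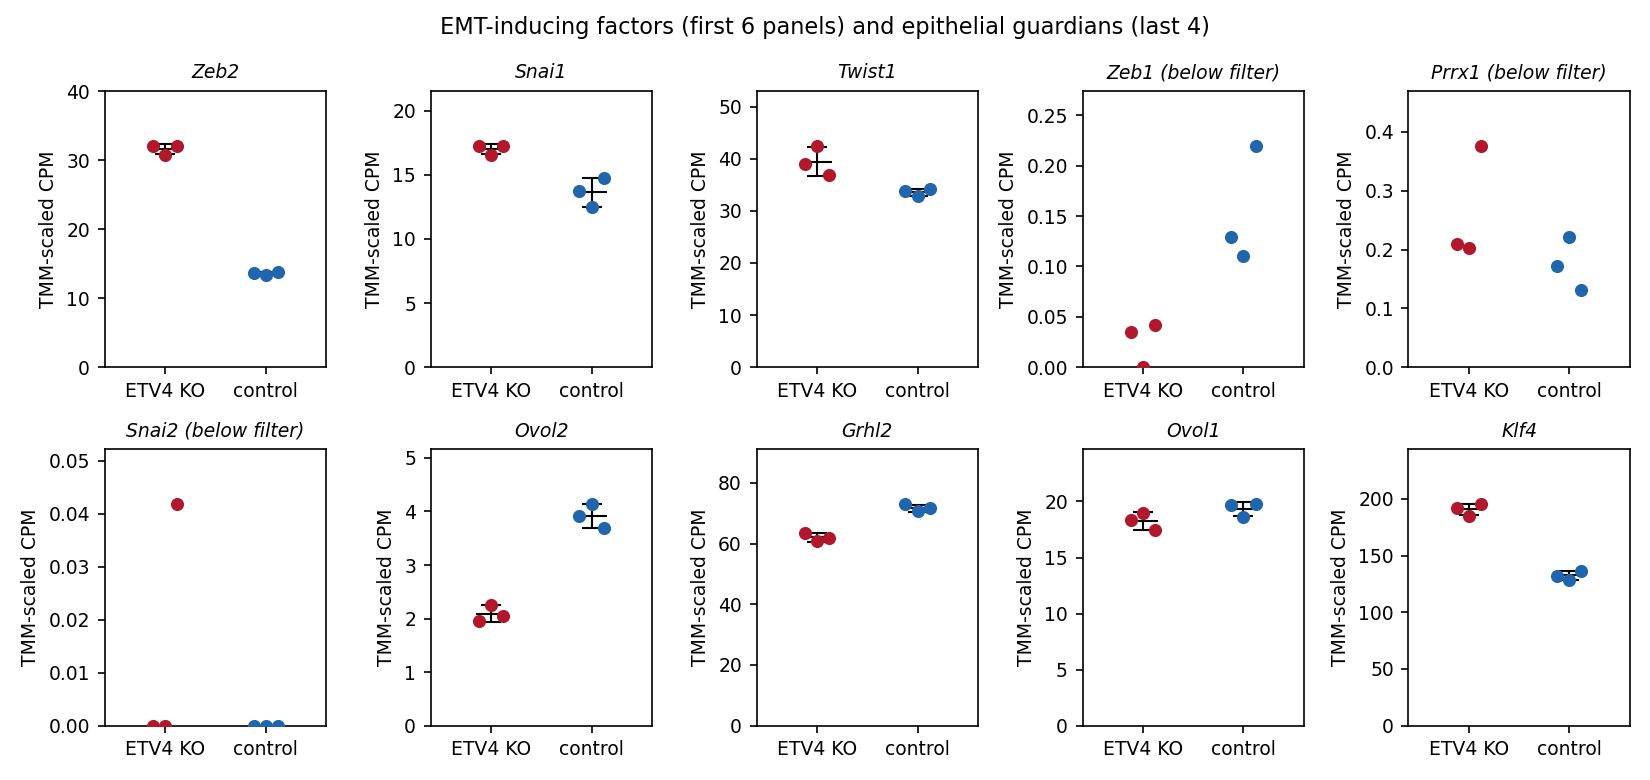
TMM-scaled CPM (y axes from 0, scaled per gene) of the 10 factors in each ETV4 KO (red, left) and control (blue, right) library; black marks are the mean and SD of 3 libraries, left out for the 3 factors below the count filter. Zeb2 had the largest fold difference among the 7 that passed, at 30.8 to 32.1 CPM in ETV4 KO and 13.3 to 13.8 CPM in control. Ovol2 came next by fold, at 1.96 to 2.26 CPM in ETV4 KO and 3.69 to 4.13 CPM in control.

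Zeb2, the ZEB-family repressor, had the largest change of the 7. It was counted 917, 762 and 767 times in the ETV4 KO libraries and 316, 361 and 313 times in the control libraries. That is 32.0, 30.8 and 32.1 CPM in ETV4 KO against 13.6, 13.3 and 13.8 CPM in control. Each ETV4 KO library lay above each control library, and the groups were far apart relative to their spread. The means were 31.6 CPM ± 0.740 in ETV4 KO and 13.6 CPM ± 0.223 in control (SD, n = 3 each), and the log2 fold change was 1.22 ± 0.061 (SE; adjusted p = 4.52e-17 by edgeR), or 2.33-fold. Only 7.40% of all tested genes differed by as much in either direction. Its antisense gene Zeb2os, which overlaps Zeb2, had 8, 3 and 6 counts in ETV4 KO and 2, 1 and 1 in control, below the filter. The strand setting of the counting is not stated, so reads of such overlapping pairs cannot be told apart, but these few counts are small beside those of Zeb2.

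The Zeb2 gene lies on the minus strand of chromosome 2 (44983632 to 45117395 in mm10). The 250 bases before the most upstream of its RefSeq starts (GRCm38.p6, chr2:45117443-45117692, minus strand) are shown because Zeb2 was the factor with the largest change; capitals mark the ETS core GGAA on either strand, which is TTCC when read from the other strand.
Zeb2: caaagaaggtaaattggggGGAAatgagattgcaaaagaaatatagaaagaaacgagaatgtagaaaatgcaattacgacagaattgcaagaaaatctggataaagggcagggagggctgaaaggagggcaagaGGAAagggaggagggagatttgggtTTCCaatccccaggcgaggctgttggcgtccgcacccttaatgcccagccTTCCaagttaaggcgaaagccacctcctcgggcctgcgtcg
The core is found 4 times in these bases, and it is common, being held by 96.0% of all promoter windows (250 bases before to 50 after a start). The longer PEA3-type form CCGGAA was in none of the 4 Zeb2 windows, against 14.9% of all windows. A match or its lack in such a window says nothing about binding.

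Snai1, which encodes SNAIL (chromosome 2, 167538195 to 167542814, plus strand), rose less. Its level was 17.2, 16.5 and 17.2 CPM in the ETV4 KO libraries and 13.7, 12.5 and 14.7 CPM in the control libraries. The ETV4 KO values were close together and all above the more scattered control values. The log2 fold change was 0.32 ± 0.073 (SE; adjusted p = 0.00027 by edgeR), or 1.25-fold, and 44.9% of all tested genes differed by at least as much. Chosen after its value was seen, the 250 bases before its start (chr2:167537945-167538194, plus strand) are shown for the single E-box of the SNAIL and ZEB type, CAGGTG or CACCTG, in capitals; SNAIL is known to bind its own promoter in human cells.
Snai1: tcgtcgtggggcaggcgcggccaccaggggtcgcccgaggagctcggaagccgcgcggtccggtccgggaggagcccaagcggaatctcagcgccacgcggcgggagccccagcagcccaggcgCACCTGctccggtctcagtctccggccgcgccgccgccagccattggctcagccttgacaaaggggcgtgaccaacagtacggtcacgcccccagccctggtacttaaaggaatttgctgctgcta
Snai1 was the only one of the 6 factors with a RefSeq window (Snai1, Twist1, Zeb2, Prrx1, Ovol2 and Klf4) that held this E-box, which 22.6% of all genes with a window have in at least one of their windows.

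Twist1 was the most abundant inducer. It was counted 1117, 1052 and 882 times in the ETV4 KO libraries and 784, 888 and 776 times in the control libraries, which is 36.9 to 42.5 CPM in ETV4 KO and 32.8 to 34.1 CPM in control. The groups did not overlap, but the ETV4 KO values ranged widely. It lies on chromosome 12 (33957671 to 33959829, plus strand). The log2 fold change was 0.23 ± 0.054 (SE; adjusted p = 0.00031 by edgeR), or 1.18-fold, and 57.5% of all tested genes differed by at least as much. The Twist1 window was the only one of the 6 with a PEA3-type ETS match, CCGGAA or its reverse complement TTCCGG, beginning 36 bases after the start; 16.7% of all genes with a window have such a match.

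The remaining inducers, Zeb1 (chromosome 18, 5591860 to 5775467), Prrx1 (chromosome 1, 163245119 to 163313710) and Snai2 (chromosome 16, 14705852 to 14709385), were near the limit of detection. Zeb1, the paralogue of Zeb2, had 1, 0 and 1 counts in the ETV4 KO libraries and 3, 3 and 5 counts in the control libraries. The direction was thus opposite to that of Zeb2, on 13 counts in all. The ratio of ETV4 KO to control was 0.172 with a 95% Clopper-Pearson interval of 0.0185 to 0.787, which covers counting error only. An exact two-sided permutation test over the libraries gave p = 0.10, the smallest that 3 against 3 allows, so this test could not pass 0.05 whatever the counts. The groups did not overlap. Without the count filter edgeR's adjusted p was 0.0705, which does not pass the threshold and does not show that the groups were alike. Prrx1 had 6, 5 and 9 counts in ETV4 KO and 4, 6 and 3 in control, with overlapping groups and a ratio of 1.45 (interval 0.688 to 3.18; exact permutation p = 0.30). The antisense gene Gm20471, which overlaps Prrx1, had 10, 15 and 8 counts in ETV4 KO and 16, 8 and 15 in control, in sum more than Prrx1 in each group. Snai2, which encodes SLUG, had 1 count over the 3 ETV4 KO libraries and 0 over the 3 control libraries, where 3 counts over a group amount to 0.0388 CPM in ETV4 KO and 0.0411 CPM in control. No fold is given for it. Expression of these 3 factors was not detectable, or barely so, at this depth in either group.

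Among the guardians, Ovol2 (chromosome 2, 144305175 to 144332146, minus strand) fell most. Its counts were 56, 56 and 49 in the ETV4 KO libraries and 91, 112 and 84 in the control libraries. That is 1.96, 2.26 and 2.05 CPM in ETV4 KO against 3.92, 4.13 and 3.69 CPM in control, and the highest ETV4 KO value was well under the lowest control value. The log2 fold change was -0.91 ± 0.15 (SE; adjusted p = 4.85e-06 by edgeR), a ratio of 0.531, and 11.3% of all tested genes differed by at least as much. Ovol2 was the least abundant of the 7 in reads, so its change is the least precise.

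The change of its paralogue Ovol1 (chromosome 19, 5549136 to 5560646, minus strand) did not pass the threshold. It had 18.4, 19.0 and 17.4 CPM in the ETV4 KO libraries and 19.6, 18.6 and 19.7 CPM in the control libraries. The groups overlapped, and the log2 fold change was -0.08 ± 0.064 (SE; adjusted p = 0.265 by edgeR) with an approximate 95% interval of -0.21 to 0.05. This interval leaves out a fall of the size seen in Ovol2. Per exon length and within a library, Ovol1 was 5.31 ± 0.331 times as abundant as Ovol2 in ETV4 KO and 3.00 ± 0.255 times in control (SD, n = 3 each).

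Grhl2, the grainyhead-like factor that activates junction genes (chromosome 15, 37233036 to 37363569, plus strand), fell slightly. Its level was 63.6, 60.8 and 61.7 CPM in the ETV4 KO libraries and 72.9, 70.6 and 71.5 CPM in the control libraries, without overlap. The log2 fold change was -0.21 ± 0.041 (SE; adjusted p = 4.51e-05 by edgeR), a ratio of 0.866, and 61.7% of all tested genes differed by at least as much. The antisense gene Gm16136, which overlaps Grhl2, fell too, with 60, 47 and 61 counts in ETV4 KO and 91, 106 and 106 counts in control (log2 fold change -0.93, SE 0.16, edgeR adjusted p = 4.87e-06).

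Klf4 (chromosome 4, 55527143 to 55532466, minus strand) rose, unlike Ovol2 and Grhl2. It had 191.9, 185.0 and 195.2 CPM in the ETV4 KO libraries and 131.9, 128.7 and 136.7 CPM in the control libraries, the highest CPM of any of the 10 factors in every library. The groups were widely separated. The log2 fold change was 0.53 ± 0.035 (SE; adjusted p = 5.6e-14 by edgeR), or 1.44-fold, and 25.2% of all tested genes differed by at least as much. So of the 4 guardians 1 rose, 2 fell and 1 did not pass.

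The order of the factors by level was compared per kilobase of exon, as RPKM, which is CPM divided by exon length in kilobases. Klf4 led in both groups, with 62.5 RPKM ± 1.70 in ETV4 KO and 43.4 RPKM ± 1.33 in control (SD, n = 3 each). Twist1 came next, with 24.2 RPKM ± 1.74 in ETV4 KO and 20.6 RPKM ± 0.430 in control. Snai1 (10.5 RPKM in ETV4 KO, 8.42 RPKM in control) was above Grhl2 (7.20 RPKM in ETV4 KO, 8.32 RPKM in control) in the ETV4 KO libraries, whereas in the control libraries their ranges overlapped. Ovol1 followed with 5.23 RPKM in ETV4 KO and 5.55 RPKM in control. Zeb2 and Ovol2 were the lowest of the 7 and changed places: Zeb2 had 1.59 RPKM ± 0.0371 in ETV4 KO and 0.680 RPKM ± 0.0112 in control, Ovol2 0.988 RPKM ± 0.0741 in ETV4 KO and 1.85 RPKM ± 0.104 in control. The ratio of Ovol2 to Zeb2 within a library was 0.576, 0.694 and 0.603 in ETV4 KO and 2.72, 2.93 and 2.53 in control. Whether this ratio lies above or below 1 depends on the exon lengths, 2113 bases for Ovol2 and 19942 for Zeb2 with the exons of all annotated transcripts joined, but its difference between the groups does not. The ratio of Grhl2 to Zeb2 was 4.54 ± 0.0792 in ETV4 KO and 12.2 ± 0.183 in control (SD, n = 3 each). Prrx1 had 0.0237 RPKM in ETV4 KO and 0.0158 RPKM in control, Zeb1 0.00249 RPKM in ETV4 KO and 0.0149 RPKM in control, and Snai2 0.00690 RPKM in ETV4 KO and 0 in control. In ETV4 KO the order was Prrx1, Snai2, Zeb1, and neighbours in it had overlapping ranges. In control it was Prrx1, Zeb1, Snai2, where the ranges of Prrx1 and Zeb1 overlapped and Zeb1 lay above Snai2.

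Because neighbouring genes can differ between the groups together, each factor was set beside the expressed genes of its 10 Mb bin. For Klf4 (chromosome 4) the 18 neighbours had a median log2 fold change of -0.19, with 5th to 95th percentiles of -0.88 to 0.31, and Klf4 lay above that range. Ovol2 (chromosome 2) lay below the range of its 23 neighbours, whose median was 0.14 and whose percentiles were -0.35 to 0.46. Zeb2, with fewer than 10 expressed neighbours in its bin, lay above the range of the 729 expressed genes of chromosome 2, with a median of 0.15 and percentiles of -0.49 to 0.90. Snai1, also on chromosome 2, lay within the range of its 54 neighbours (median -0.17, -0.67 to 0.56), as did Twist1 on chromosome 12 among 20 (median 0.04, -0.35 to 0.58). The 32 neighbours of Grhl2 on chromosome 15 were mostly higher in ETV4 KO, with a median of 0.41 and percentiles of -0.24 to 0.75. Ovol1 on chromosome 19 stood at -0.08 within the range of 128 neighbours with a median of 0.11. With the bin medians taken out as an offset, Grhl2 was at -0.62 ± 0.041 (SE; adjusted p = 5.14e-14 by edgeR), Snai1 had 0.49 (SE 0.073) and Ovol1 was called lower with -0.19 (SE 0.064, edgeR adjusted p = 0.0125). Under this offset all 7 were called, 4 higher and 3 lower, against 64.8% of all tested genes, 30.5% higher and 34.2% lower. These SEs treat the median as known. Etv4 itself was among 101 neighbours on chromosome 11 with a median of -0.46.

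**Figure D2:**
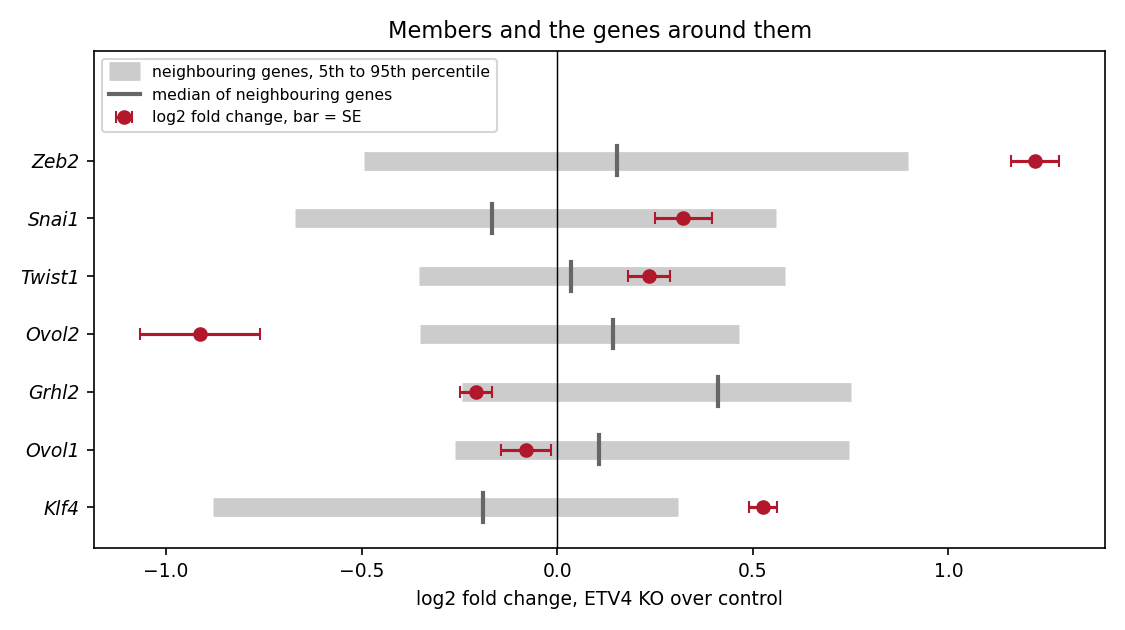
Log2 fold change, ETV4 KO over control, of the 7 factors that passed the filter (red points, bars are SE) over the 5th to 95th percentile range (grey) and median (dark line) of the expressed genes in the same 10 Mb bin, or for Zeb2 on the same chromosome. Zeb2 at 1.22 and Klf4 at 0.53 lie above their grey ranges, Ovol2 at -0.91 lies below, and the other 4 lie within.

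The genes whose pattern over the 6 libraries was most like that of Zeb2, by Euclidean distance of mean-centred log2 CPM, were Ank, a membrane protein that exports pyrophosphate (distance 0.0434), the ERK phosphatase gene Dusp5 (0.0687) and the transglutaminase gene Tgm2 (0.0745). Their log2 fold changes were 1.22, 1.23 and 1.23. For Ovol2 they were the receptor phosphatase gene Ptpru (0.0599), the non-coding RNA gene Snhg20 (0.0721) and Trim7, a tripartite motif gene (0.0760), at -0.79, -0.82 and -0.94. Over 6 libraries in 2 groups this likeness rests mostly on the difference between the groups.

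Other EMT-inducing factors moved in both directions. Of 17 listed genes 12 were tested, of which 6 rose and 3 fell, with a median log2 fold change of 0.12 against -0.00384 over all tested genes. That is 50% higher and 25% lower, against 35.0% and 36.0% of all tested genes, and the share called in either direction was close to the 71.1% of all tested genes. Foxq1, a forkhead factor that represses Cdh1 in human cells, had 34, 33 and 40 counts in ETV4 KO and 1, 7 and 8 in control, a log2 fold change of 2.63 ± 0.37 (SE; adjusted p = 2.72e-07 by edgeR). Snai3, the third SNAIL-family gene, had 23, 21 and 22 counts in ETV4 KO and 7, 6 and 12 in control, a log2 fold change of 1.30 ± 0.35 (SE; adjusted p = 0.00143 by edgeR). Klf8, a KLF repressor of Cdh1 in human cells, fell to 5, 6 and 9 counts in ETV4 KO, against 72, 66 and 63 in control, a log2 fold change of -3.39 ± 0.28 (SE; adjusted p = 6.88e-12 by edgeR). Foxq1 and Snai3 are thus low in both groups, and Klf8 in ETV4 KO. These genes passed the count filter through their higher group, since not all libraries of the lower group reached 10 counts. Their fold changes thus rest on few counts in the lower group. The chromatin protein gene Hmga2, which activates Snai1 in mouse mammary cells and was named after its value was seen, rose to 760.8 CPM ± 44.5 in ETV4 KO, against 314.4 CPM ± 9.31 in control (SD, n = 3 each; log2 fold change 1.27, SE 0.037). Gsc and Six2 had 0 counts in all 6 libraries, and Twist2 had 4 counts in each group.

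All 4 Id genes rose. TWIST1 binds E-boxes as a dimer with E proteins, and Id proteins, which lack a DNA-binding region, take E proteins away. The E protein gene Tcf3 fell slightly, to 174.6 CPM ± 3.95 in ETV4 KO against 206.5 CPM ± 3.14 in control (SD, n = 3 each; log2 fold change -0.24, SE 0.033, edgeR adjusted p = 1.72e-07; -0.12 with the bin medians taken out). Id1 rose to 160.4 CPM ± 10.2 in ETV4 KO, against 66.8 CPM ± 2.35 in control (SD, n = 3 each). The log2 fold change of Id1 was 1.26 ± 0.043 (SE; adjusted p = 3.32e-21 by edgeR), and Id2 rose by 1.14 (SE 0.041). Of the 7 genes of this list, all tested, 5 rose and 1 fell, with a median of 0.33, which is 71.4% higher and 14.3% lower against 35.0% and 36.0% of all tested genes. A second gene, Tcf4, at -0.06 (SE 0.040), was called lower as well with upper-quartile factors, with library size only, without ETV4 KO replicate 1 and with the bin medians taken out.

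Other epithelial factors were mixed and mostly small. Of 15 listed 7 were tested, 3 rose and 3 fell, with a median of -0.01. These shares of 42.9% each way are near the 35.0% higher and 36.0% lower of all tested genes. Grhl1, the paralogue of Grhl2, rose by 0.83 (SE 0.16, edgeR adjusted p = 3.94e-05), from few reads, with 4.03 CPM ± 0.699 in ETV4 KO and 2.27 CPM ± 0.262 in control (SD, n = 3 each). The epithelial ETS factor gene Elf3 rose by 0.34 (SE 0.063). The luminal factor genes Foxa1 and Gata3 had -0.32 (SE 0.094) and -0.13 (SE 0.034), and -0.48 and -0.29 with the bin medians taken out. Foxa1 was not called without control replicate 3 (-0.20, edgeR adjusted p = 0.0673), and 1 gene of this list was then called lower. Grhl3 was below the filter with 6, 2 and 5 counts in ETV4 KO and 10, 10 and 10 in control, and Ehf had 0 counts in every library.

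Most other KLF genes that were tested rose. Of 15 listed 11 were tested, 7 rose and 2 fell, with a median of 0.25, and 7 of 11 is 63.6% against 35.0% of all tested genes. Klf13 rose by 1.03 (SE 0.038, edgeR adjusted p = 2.77e-20), to 148.5 CPM ± 3.11 in ETV4 KO against 72.9 CPM ± 2.68 in control (SD, n = 3 each), and Klf9 rose by 0.74 (SE 0.059). The falls were Klf8, given above, and Klf7 at -0.13 (SE 0.058, edgeR adjusted p = 0.0488). Klf7 was not called in 10 of the 17 alternatives, among them leaving out ETV4 KO replicate 2 or 3 or control replicate 1 or 2, with adjusted p of 0.196, 0.123, 0.115 and 0.157. Only Klf8 was then called lower in this list.

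Genes for the corepressors of SNAIL and ZEB and for the turnover of the inducer proteins showed no common direction before the bin medians were taken out. With these medians taken out, the turnover genes leaned upwards and the corepressor genes still showed no common direction. Among 17 tested corepressor genes there were 7 rises and 6 falls (median 0.04), and these shares, 41.2% and 35.3%, are near the 35.0% and 36.0% of all tested genes. Suv39h1, a histone H3 lysine methyltransferase that SNAIL recruits in human breast cancer cells, rose by 1.09 (SE 0.059), and Ctbp2, a ZEB corepressor, by 0.41 (SE 0.049), but with the bin medians taken out these were 0.18 and 0.25. The deacetylase gene Hdac1 had -0.63 (SE 0.037; -0.40 with the bin medians taken out). Suz12, of the Polycomb complex, had -0.39 (SE 0.033), and with the bin medians taken out it was 0.023 and was not called. Among 14 tested turnover genes there were 6 of each (median 0.000497), or 42.9% each way, near the same background. The kinase genes Pak1 and Lats2, whose proteins phosphorylate SNAIL in human cells, rose by 0.57 (SE 0.045) and 0.48 (SE 0.059). The ubiquitin ligase genes Fbxw7 and Btrc had -0.25 (SE 0.062) and -0.22 (SE 0.060). With the bin medians taken out, Pak1 had 0.26, Fbxw7 -0.031 (not called) and Btrc -0.38. Under that offset 7 of the 14 turnover genes were called higher and 1 lower in place of 6. Of the 17 corepressor genes 7 were then called higher and 5 lower (median 0.035). Over all tested genes these shares were then 30.5% higher and 34.2% lower.

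The epithelial genes that SNAIL or ZEB are known to repress were mostly lower in ETV4 KO. Of 24 listed 23 were tested, of which 17 fell and 2 rose, with a median of -0.39. That is 73.9% lower, against 36.0% of all tested genes. The members of the list were chosen with earlier results of these data known, so this share is a description. Rab25, a GTPase of epithelial recycling, fell to 12, 4 and 2 counts in ETV4 KO, against 1153, 1334 and 1103 in control. The P-cadherin gene Cdh3 had 0 counts in the ETV4 KO libraries and 12, 20 and 21 in the control libraries, at least 18.7-fold lower (floor of 3 counts summed over the group). Rab25 and Cdh3 passed the count filter through the control libraries, since not all ETV4 KO libraries reached 10 counts. The E-cadherin gene Cdh1 fell slightly, with 476.2 CPM ± 10.8 in ETV4 KO and 544.2 CPM ± 18.8 in control (SD, n = 3 each; log2 fold change -0.19, SE 0.032, edgeR adjusted p = 4.99e-06; -0.059 and not called with the bin medians taken out; named after its value was seen). Cldn4 rose by 0.47 (SE 0.034; 0.24 with the bin medians taken out). Crb3, a polarity gene, had 0.20 (SE 0.080, edgeR adjusted p = 0.0241) with overlapping groups. In 10 of the 17 alternatives Crb3 was not called, among them DESeq2, upper-quartile factors and library size only (adjusted p 0.050, 0.064 and 0.0846) and each of the sets without ETV4 KO replicate 2 or 3 or control replicate 1 or 2 (0.202, 0.0552, 0.124 and 0.0792). With the bin medians taken out its sign turned (-0.12).

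RefSeq windows were at hand for 12 of these 24 genes, and Cdh1 was not among them. Each of the 12 held at least 1 CAGGTG or CACCTG E-box in at least 1 window, against 22.6% of all 27025 genes with a window. The 12 were listed as targets of factors that bind this E-box, so the contrast is a description, not a test. Of these, 3 are shown, chosen after their values were seen, with the E-boxes in capitals, as the 250 bases before the most upstream start: Rab25, which fell most, Epcam, an adhesion gene that fell, and Crb3, which did not fall.
Rab25: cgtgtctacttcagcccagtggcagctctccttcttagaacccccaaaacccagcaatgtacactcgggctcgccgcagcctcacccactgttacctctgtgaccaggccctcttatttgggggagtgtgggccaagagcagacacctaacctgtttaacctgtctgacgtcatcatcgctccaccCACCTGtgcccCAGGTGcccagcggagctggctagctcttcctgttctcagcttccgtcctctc
Epcam: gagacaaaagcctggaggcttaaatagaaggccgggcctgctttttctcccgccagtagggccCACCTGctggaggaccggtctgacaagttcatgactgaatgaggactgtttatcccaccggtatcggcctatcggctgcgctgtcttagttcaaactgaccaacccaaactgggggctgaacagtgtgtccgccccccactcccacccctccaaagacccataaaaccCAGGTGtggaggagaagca
Crb3: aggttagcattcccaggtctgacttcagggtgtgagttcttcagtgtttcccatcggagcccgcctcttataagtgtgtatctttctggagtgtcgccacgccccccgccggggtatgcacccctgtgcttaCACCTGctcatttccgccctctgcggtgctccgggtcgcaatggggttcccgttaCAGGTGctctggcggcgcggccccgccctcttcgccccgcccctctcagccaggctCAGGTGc
They lie at chr3:88548280-88548529 (minus strand), chr17:87635729-87635978 (plus strand) and chr17:57061951-57062200 (plus strand) in GRCm38.p6. The E-boxes number 2, 2 and 3, while the log2 fold changes were -7.69, -1.37 (SE 0.033) and 0.20 (SE 0.080). Genes with this E-box thus differed widely in size and direction. The SE for Rab25 was 0.14 in this fit but 0.35 with DESeq2. With 12, 4 and 2 counts in ETV4 KO, the smaller value is not a measure of its precision. The letters searched can overlap, since CAGGTG is one form of the general E-box CANNTG and CCGGAA holds GGAA. The GRHL site AACCGGTT, its own reverse complement, was in none of the windows of the members or of these genes, and only 0.174% of all genes have it in a window.

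**Figure D3:**
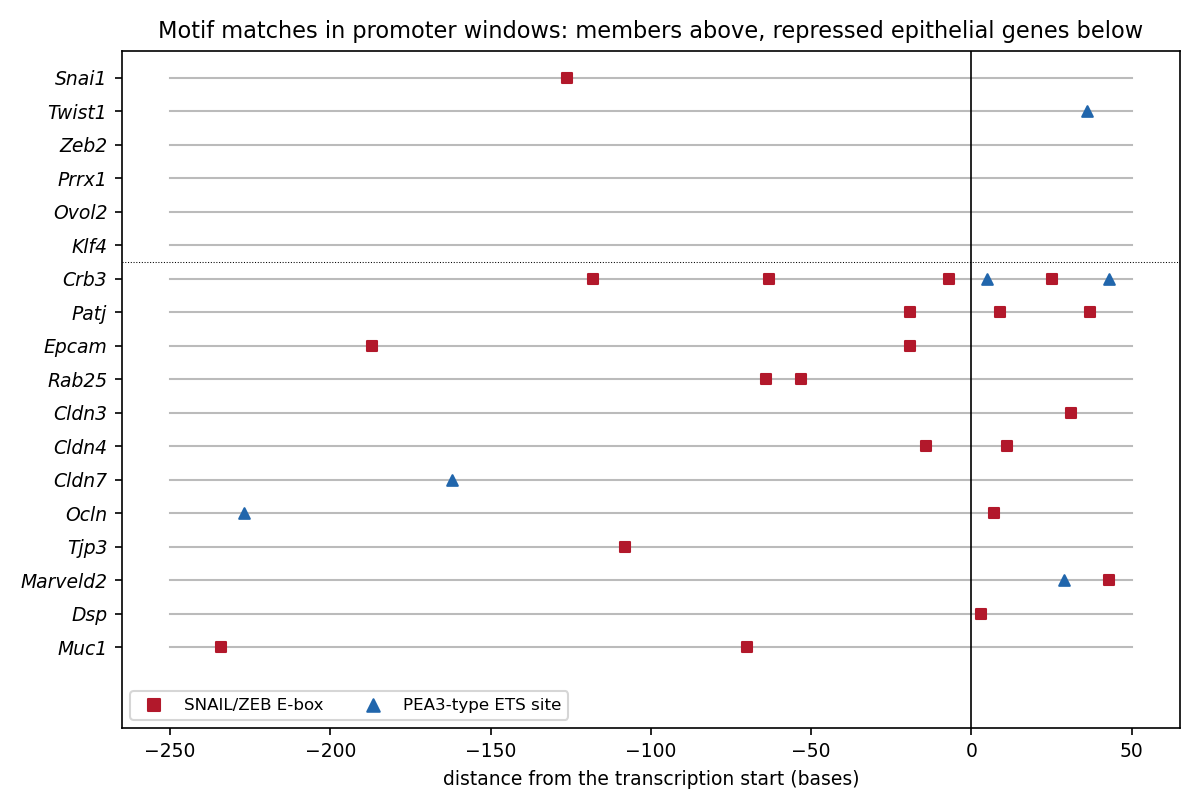
Matches to the SNAIL and ZEB type E-box (red squares) and the PEA3-type ETS site (blue triangles) by distance in bases from the transcription start (x axis) in the most upstream RefSeq window of each gene; the 6 factors with a window stand above the dotted line and 12 repressed epithelial genes below it. Snai1 alone of the factors holds the E-box, and Cldn7 holds it only in a second window that is not drawn.

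Genes known to be activated by GRHL2, from mouse or human cells, were also mostly lower. All 8 were tested. Of these 6 fell and 1 rose, with a median of -0.83, which is 75.0% lower and 12.5% higher against 36.0% and 35.0% of all tested genes. Of the 8 genes, 5 (Cdh1, Cldn3, Cldn4, Rab25 and Esrp1) are also in the list of repressed genes. Ovol2 is 1 of the 8. The receptor gene Erbb3 fell to 17.1 CPM ± 0.488 in ETV4 KO, against 41.5 CPM ± 1.56 in control (SD, n = 3 each; log2 fold change -1.28, SE 0.056, edgeR adjusted p = 2.21e-18). Spint1, a protease inhibitor gene, did not pass at -0.013 (SE 0.036), but was called at -0.22 with the bin medians taken out.

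Of 16 mesenchymal genes only 8 were tested, of which 7 rose and 1 fell, with a median of 1.01. Over all tested genes 35.0% were called higher and 36.0% lower, and the 8 mesenchymal genes below the count filter are in no such share. The smallest of the 7 rises was that of Fn1, named after its value was seen. It had 0.08 (SE 0.035, edgeR adjusted p = 0.0444) with overlapping groups. The matrix gene Tnc rose to 9.88 CPM ± 0.670 in ETV4 KO, against 4.15 CPM ± 0.415 in control (SD, n = 3 each; log2 fold change 1.25, SE 0.11), Sparc rose by 2.35 (SE 0.044), and Postn had -1.48 (SE 0.21). Others stayed below the filter: N-cadherin, Cdh2, had 0 counts over the ETV4 KO libraries and 1 over the control libraries, and Col1a1 had 19 counts in ETV4 KO and 15 in control.

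**Figure D4:**
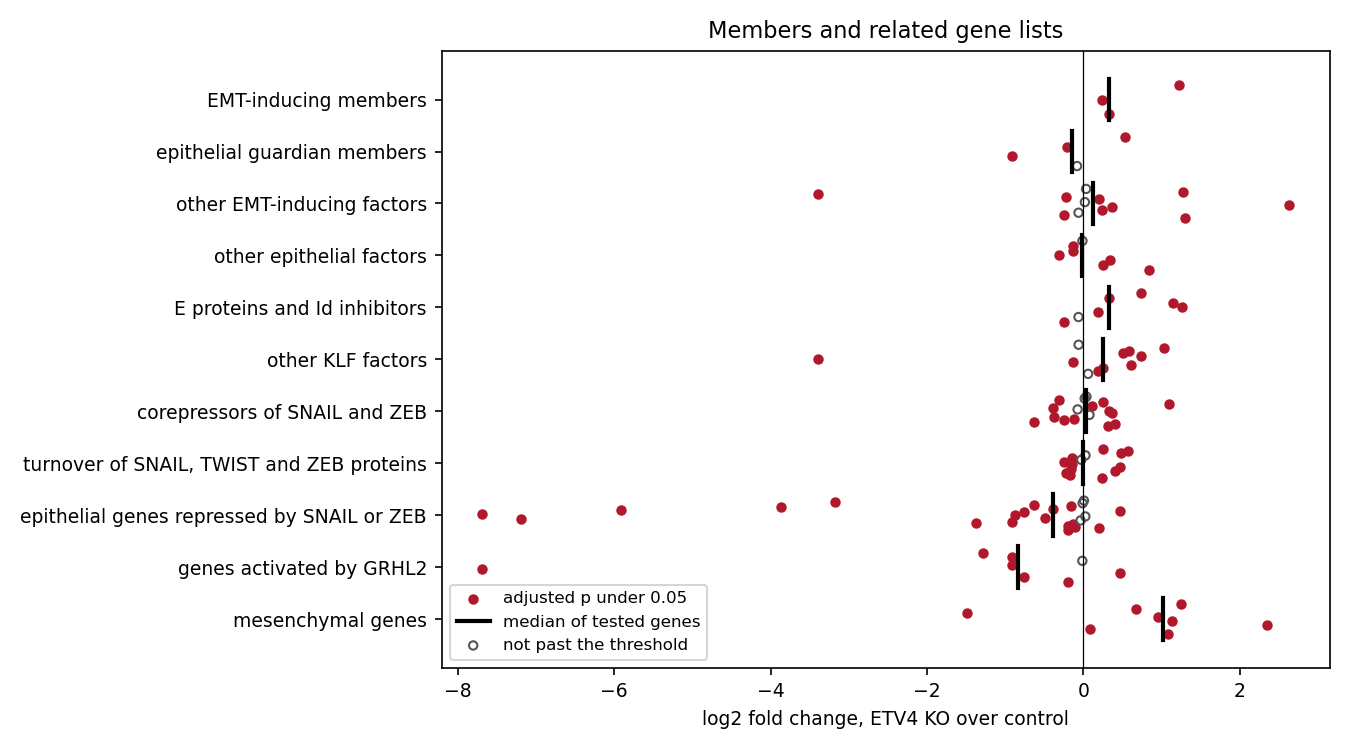
Log2 fold change, ETV4 KO over control (x axis), of each tested gene in the 11 lists; filled red points passed an edgeR adjusted p under 0.05, open points did not, and black lines are list medians. The lists of genes repressed by SNAIL or ZEB and of genes activated by GRHL2 lie mostly to the left of 0 with medians of -0.39 and -0.83, and the mesenchymal genes mostly to the right with 1.01. Cdh3 had 0 counts in the ETV4 KO libraries, so the place of its point is not an estimate. Its fall was at least 18.7-fold.

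Markers of other cell types were low. The summed level of 8 fibroblast markers was 13.0 to 14.6 CPM in ETV4 KO and 10.1 to 11.9 CPM in control, nearly all of it Pdgfra, which rose by 0.32 (SE 0.083; not called at 0.18 with the bin medians taken out), whereas Lum and Thy1 had 0 counts and Dcn 1 count per group. The 8 leukocyte markers summed to 9.41 to 11.4 CPM in ETV4 KO and 9.82 to 10.5 CPM in control, led by Cd68 (0.052, SE 0.091; called at 0.42 with the bin medians taken out), with Adgre1, Lyz2 and Cd3e at 0. Some markers below the filter, named after their values were seen, did not overlap between the groups. The fibroblast marker Fap had 2, 4 and 2 counts in ETV4 KO and 6, 5 and 8 in control. The leukocyte marker Csf1r had 4, 1 and 0 counts in ETV4 KO and 7, 21 and 11 in control. Ptprc, also of the leukocyte list, went the other way, with 5, 5 and 6 counts in ETV4 KO and 1, 4 and 3 in control. The 4 endothelial markers summed to 0.121 to 0.314 CPM in ETV4 KO and 0.220 to 0.603 CPM in control, and the 3 adipocyte markers to at most 0.105 CPM in ETV4 KO and 0.0738 CPM in control. The 6 mammary epithelial markers summed to 3292 to 3436 CPM in ETV4 KO and 4651 to 4788 CPM in control. Of these, 5 of 5 tested were called lower, against 36.0% of all tested genes, among them Krt8 (-0.48, SE 0.030) and Epcam (-1.37, SE 0.033). With the bin medians taken out 3 were called lower, against 34.2% of all tested genes. The part of this shift of the markers in the values of the factors was not tested.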

How the data were processed

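Poly(A) RNA of 6 samples, 3 ETV4 KO and 3 control, was measured by sequencing, and samples were grouped by their titles. The authors deposited raw read counts per gene symbol. These are whole numbers whose totals differ between libraries. In the submitters' processing notes the tools are STAR 2.7.9a, featureCounts, FastQC 0.11.9 and R 4.1.1, and the builds mm10 and hg38; their roles, the annotation and the strand setting are not stated there.

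The counts were analysed with edgeR 4.0.16 in R 4.3.3: filterByExpr (minimum count 10, minimum total 15), TMM factors, glmQLFit and glmQLFTest on the group, and Benjamini-Hochberg adjustment over 12076 genes. SEs were computed as |log2 fold change| over the root of the F statistic. Where a group had few counts, as for Rab25, this SE can be too small. Log2 CPM used a pseudocount of 0.5. Positions and exon lengths came from GENCODE M21 (GRCm38, equal to mm10), and neighbours are expressed genes (edgeR log2 CPM above 3) in a 10 Mb bin, or on the chromosome where the bin held fewer than 10. Promoter windows came from RefSeq (GRCm38.p6), and 6 of the 10 members had one.

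The members and lists were chosen with earlier results of these data known. Of each list up to 4 genes are named, the 2 largest called rises and the 2 largest called falls; others are said to be named after their values were seen, or are counts at or near 0. Tbxt was looked up under its older symbol T. The fit was tested on simulated data. Alternatives were RLE, upper-quartile and library-size scaling, DESeq2 1.42.0, limma-voom (limma 3.58.1), 2 other filters, a replicate block, each library left out, the bin offset, a stricter threshold, glmTreat and a pseudocount of 1.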

Additional observations from a re-analysis of the deposited data

How the results depend on the processing

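Zeb2 and Ovol2 kept their direction and call in all 17 alternatives, with log2 fold changes of 1.07 to 1.24 and -1.06 to -0.87. Klf4 (0.53), Snai1 (0.32), Twist1 (0.23) and Grhl2 (-0.21) kept theirs in 16, all but glmTreat against a fold change of 1.5, under which 1 member was called higher, 1 lower, and 1684 genes, 13.9% of those tested, in all. Ovol1 was called only with the bin medians taken out (-0.19). Leaving out 1 library gave 0.26 to 0.38 for Snai1, 0.18 to 0.28 for Twist1 and -0.11 to -0.05 for Ovol1, with no change of call among members. Of the other genes named, Crb3 (-0.12) and Suz12 (0.023) changed sign with the bin medians taken out, and neither was then called. Cd68 changed sign without ETV4 KO replicate 1 (-0.050) and Spint1 without control replicate 2 (0.007), and neither was called there. With a pseudocount of 1 the difference of mean log2 CPM of Ovol2 was -0.67. This is another measure than the edgeR log2 fold change and is not to be set against it. Other scalings moved the median of all tested genes by 0.051 at most, downwards (shift -0.051 with library size only). Deviations of same-numbered libraries correlated at 0.071, 0.0705 and 0.0186. ETV4 KO replicate 3 correlated slightly better with control replicate 1 (0.0199). Each control library correlated best with its same-numbered ETV4 KO library, though for control replicate 3 ETV4 KO replicate 2 was almost level (0.0185). Such small values do not decide whether the numbers mark pairs, and the fit did not take them as pairs. With the replicate block 8882 genes were called, against 8582 without it, and the calls of the members did not change. Depth limits Zeb1, Prrx1 and Snai2, which had no more than 9 counts in a library.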
